A study of Mus musculus with 7 samples.

Results

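The 3 control libraries of a 7-library study describe mouse tibialis anterior (TA), a fast muscle of the shin, 3 days after the muscle was injured with barium chloride (BaCl2). They are the libraries labelled Control, with the genotype WT; Pax7-CreERT2, and were made from TA muscle of 7-week-old male mice. The labels number them as biological replicates 1 to 3 and do not say whether tissue was pooled. Pax7-CreERT2 puts a drug-inducible Cre recombinase under control of Pax7, a gene of muscle stem cells. The labels name no inducing drug for these mice. The study sets them against 4 libraries of the genotype Sirt7fl/fl; Pax7-CreERT2, which were not used here. Each value is a level or a spread within 1 group, and no difference between conditions was tested.

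BaCl2 kills muscle fibres while stem cells and the sheaths around the fibres largely survive. Monocytes enter the tissue, become macrophages and clear the dead fibres, while fibro-adipogenic progenitors, the mesenchymal cells between fibres, lay down a temporary matrix. Stem cells marked by Pax7 divide, switch on Myod1 and then Myog, stop dividing and fuse into new fibres, which begin with embryonic forms of the contractile proteins before adult forms replace them.

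The libraries held 5777563, 5601699 and 5713894 counts in replicates 1, 2 and 3. Levels are given as CPM, a gene's counts scaled to a common library size, after TMM scaling factors between 0.995 and 1.005. Levels of different genes are compared as TPM, which also divides by exon length, and an order by CPM says only which transcripts gave more counts. Errors are SDs over the 3 libraries. A mean of at least 1 CPM was reached by 17729 genes, 13529 of them protein-coding, and a mean of at least 10 CPM by 11870 genes. Across genes the libraries were alike, with Pearson's r of log2 CPM between 0.979 and 0.984 for the 3 pairs, a description over genes, which are not independent. Their counts nevertheless differed by 3.23 to 5.50 times the variance that counting alone gives (chi-square over its degrees of freedom), so no 2 libraries were copies of one another. Of the gene lists described below, that of the adult fast fibre differed most between libraries, 2.52-fold in summed CPM. It was highest in replicate 1 and lowest in replicate 3. The excess over counting was not confined to its genes, as the spread of the most counted genes below shows. Sirt7, the gene that the study deletes in its other group, was at 45.8, 70.5 and 57.2 CPM in the 3 controls.

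Among protein-coding genes, mitochondrial transcripts and genes of macrophages and lysosomes held most of the leading ranks per exon length. Genes annotated as other than protein-coding have no rank here. The first rank was that of mt-Co1, a subunit of cytochrome oxidase, with 8601 ± 709 TPM. The other mitochondrial genes among the leading 20 were mt-Atp8 at rank 5, mt-Atp6 at 8, mt-Co2 at 9, mt-Nd1 at 11, mt-Cytb at 13 and mt-Co3 at 16, all subunits of the respiratory chain or of ATP synthase. Lyz2, the lysozyme of macrophages and other myeloid cells, ranked 2 of 21760 protein-coding genes with 8232 ± 208 TPM. It stood at 6511, 6949 and 6622 CPM in replicates 1, 2 and 3. Apoe, a lipid carrier that macrophages secrete, ranked 4 with 7021 ± 822 TPM and was highest in replicate 2, with 9337, 10419 and 8084 CPM. Psap, the precursor of the saposins that help degrade lipids in lysosomes, ranked 6 with 4917 ± 278 TPM, and Ctsd, a lysosomal protease, ranked 7 with 4368 ± 287 TPM. The exons of Ctsd share 808 bases with a predicted gene, Gm49369, so the split of reads between them is uncertain. Exons of many other genes reported here also overlap other genes, and their levels carry the same limit. Among them are Ctsb, Itgam, Csf1r, Pdgfra, Sgsh, Ckm, Notch3, Sdc3, Mb, Spp1, Selenop, Fn1, Col3a1 and Sirt7. Spp1 (osteopontin), a secreted glycoprotein of macrophages in wounds, ranked 18 and was highest in replicate 3, with 2139.6, 2195 and 3314 CPM.

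Ftl1, the light chain of ferritin, ranked 12 per length with 3467 ± 329 TPM. A copy of it annotated as Ftl1-ps1 ranked 3 with 7200.3 ± 662 TPM, and the split of reads between these near-identical genes is uncertain, since the treatment of multi-mapping reads is not given in the sources used here. Tmsb4x, an actin-binding peptide of motile cells, ranked 14 with 3146 ± 318 TPM. B2m, the light chain of class I antigen-presenting molecules, ranked 15, C1qb, a chain of the first complement component, ranked 20, and Lgals1 (galectin 1) ranked 19. The predicted genes Gm10073 and Gm49369 ranked 10 and 17. The first collagen, Col1a1, ranked 61. In CPM, which does not divide by length, Actb, cytoplasmic actin, had 3152 ± 249.7 CPM. Col1a1, a chain of type I collagen, had 3248 ± 222 CPM, Vim (vimentin), the intermediate filament of mesenchymal cells and leukocytes, had 2956 ± 95.7 CPM, and Selenop, a selenium carrier, had 2146 ± 172 CPM. The 10 most counted genes held 6.18 ± 0.145% of all counts and the 100 most counted held 19.2 ± 0.170%. Acta1, skeletal muscle actin, ranked 33 with 1448 ± 723 TPM, the highest rank among the 27 genes of the adult fast fibre list.

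**Figure D1:**
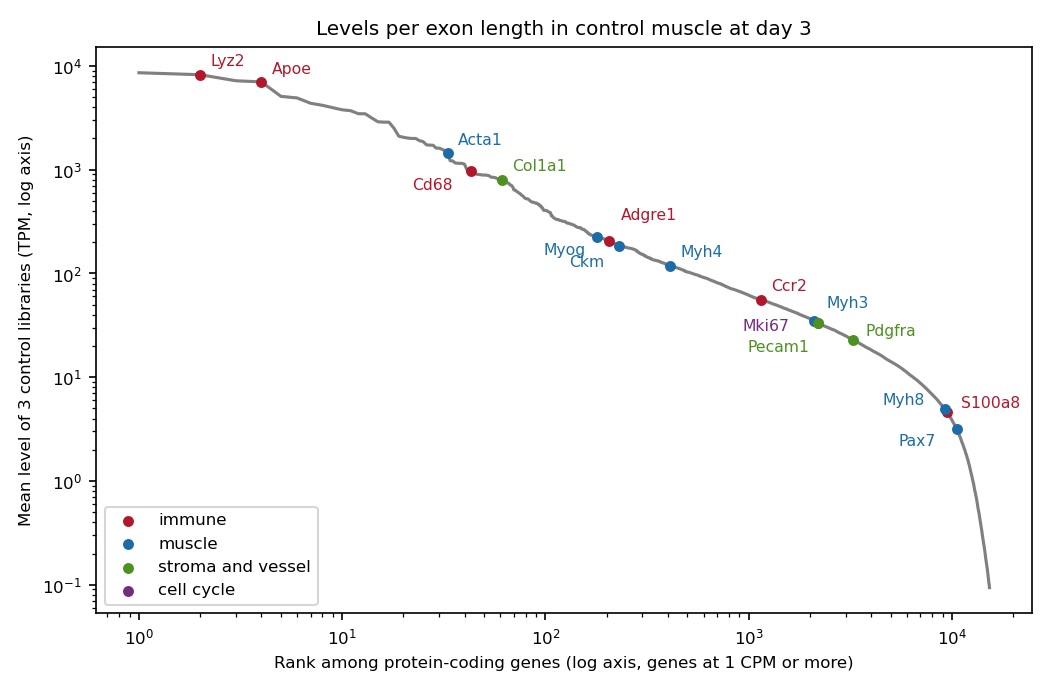
Mean level over the 3 control libraries in TPM (log axis) against rank among 21760 protein-coding genes (log axis), drawn for genes at 1 CPM or more; coloured points mark immune, muscle, stroma and vessel, and cell cycle genes. Lyz2 ranked 2, Acta1 33, Col1a1 61, Myog 180 and Pax7 10551.

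Processed pseudogenes, which are intronless copies of other genes, held 12.2 ± 0.0945% of all counts, protein-coding genes 82.1 ± 0.133%, and the protein-coding ribosomal protein genes 0.433 ± 0.0259%. Tpt1, the translationally controlled tumour protein, was at 20.4 ± 0.409 TPM, whereas its processed copy Tpt1-ps3 was at 5597 ± 21.1 TPM. Levels of genes with abundant processed copies, such as those of the ribosome, are uncertain in both places. The part of the counting settings in this was not tested. Genes of the mitochondrial genome held 2.49 ± 0.237% of counts and were highest in replicate 1.

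Gene lists for cell types and processes were summed in each library. Lysosome and phagocytosis genes had the highest sum, 35549.5 ± 2045 CPM over 20 genes, followed, in the mean over libraries, by injury matrix with 20839.8 ± 983 CPM over 24, repair macrophage with 20461 ± 937 CPM over 20 and pan-leukocyte and macrophage with 14730.3 ± 611 CPM over 18. In replicate 2 the repair macrophage sum was above that of injury matrix. Per length, as summed TPM, the repair macrophage list had 16466, the pan-leukocyte list 13358 and the injury matrix list 5195 TPM. Lists share genes, and Gpnmb and Cd68, for example, count in the lysosome list and in a macrophage list as well. Adult fast fibre genes summed to 5259 ± 2306 CPM over 27 genes, regenerating fibre genes to 1478 ± 476 CPM over 15 and muscle stem cell genes to 1708 ± 6.77 CPM over 18. Such sums depend on the genes chosen and on their lengths, so the median rank per length of the members at 1 CPM or more is set beside them. That median rank was 94.5 for lysosome, 219.5 for pan-leukocyte, 484 for repair macrophage, 504 for injury matrix, 993 for adult fast fibre, 3373 for regenerating fibre and 5140 for muscle stem cell, of 21760. The median protein-coding gene at 1 CPM or more had 9.30 TPM, against a median of 446 TPM over the lysosome list and 11.6 TPM over the stem cell list. In RNA of a whole muscle, fewer cells of a type and less RNA per cell cannot be told apart.

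**Figure D2:**
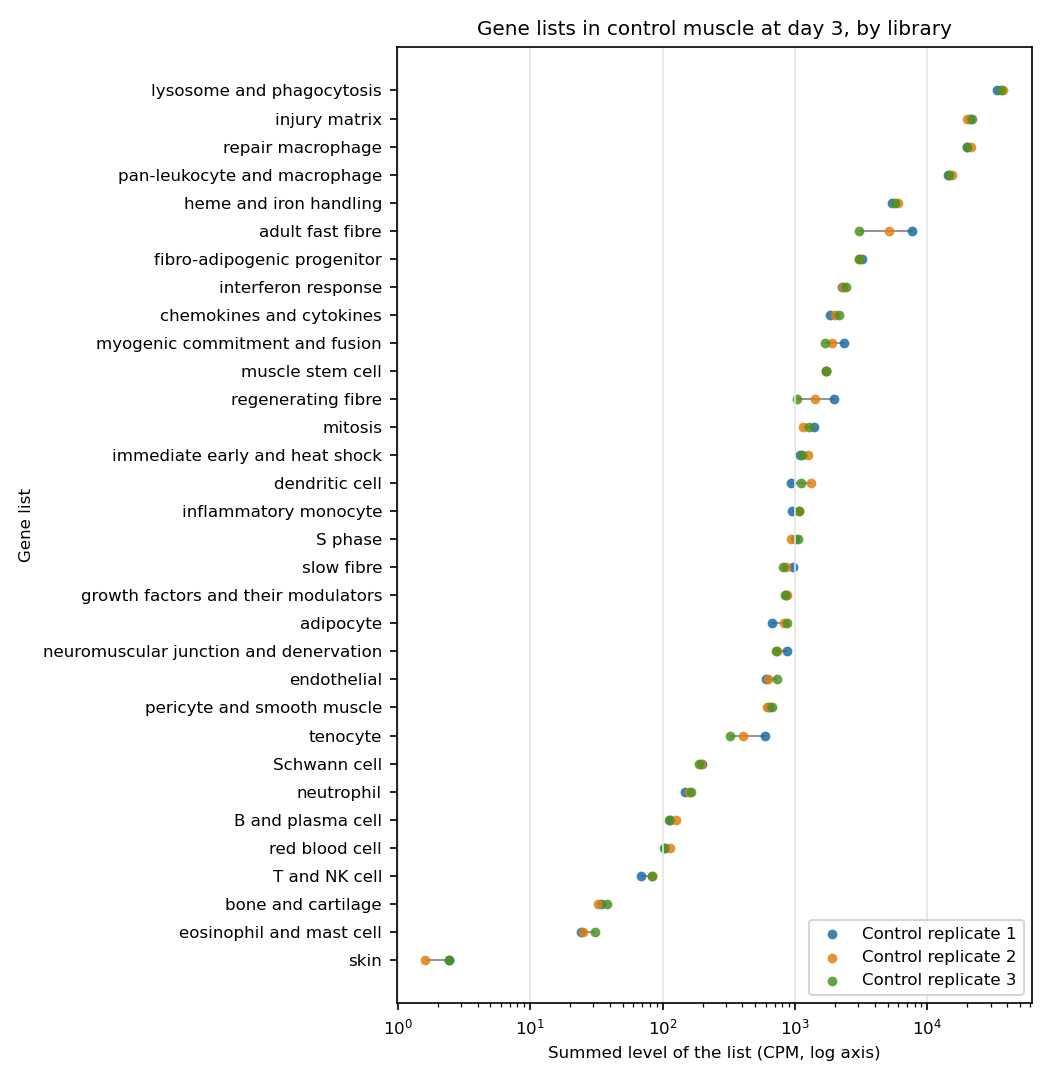
Summed level of each of 32 gene lists in CPM (log axis), 1 point per control library, with a line from the lowest to the highest library. Most lists lay within a narrow range, while adult fast fibre spread from 3035 CPM in replicate 3 to 7638 CPM in replicate 1.

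All 18 pan-leukocyte and macrophage genes were above 10 CPM, and their sums were close to one another, 14217, 15406 and 14568 CPM in replicates 1, 2 and 3. Ptprc (CD45), the phosphatase on all leukocytes, was at 276, 269.6 and 253 CPM. Adgre1 (F4/80), a receptor of mature macrophages, was at 419, 418 and 391 CPM, and ranked 205 per length. Csf1r, the receptor that keeps macrophages alive, was at 771, 796 and 714 CPM. These 3 receptors kept within 1.09-fold, 1.07-fold and 1.11-fold between the highest and the lowest library. Mpeg1 (perforin 2), a pore-forming protein of macrophages, had 2149 ± 153 CPM, Laptm5, a lysosomal membrane protein of blood cells, had 1087 ± 94.1 CPM, and Itgam (CD11b), an adhesion receptor of myeloid cells, had 251 ± 19.5 CPM. 

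Genes of repair macrophages, which follow the inflammatory ones in a healing muscle, summed to 19775, 21528 and 20079 CPM. Gpnmb, a glycoprotein of phagocytes that have taken up debris, was at 1732, 1891 and 1967 CPM and ranked 93 per length. Of the 20 genes, 19 were above 10 CPM and 13 above 100 CPM. Inflammatory monocyte genes summed to 951, 1067 and 1078 CPM over 13 genes, of which 8 were above 10 CPM. The most counted of them was Thbs1 (thrombospondin 1), a matrix glycoprotein that platelets and stromal cells make too, at 447, 452 and 474 CPM. Ccr2, the chemokine receptor with which monocytes leave the marrow, was at 205, 257 and 239 CPM, lowest in replicate 1. Ly6c2, a surface protein of inflammatory monocytes, was at 66.1, 116 and 138 CPM, also lowest in replicate 1. The summed TPM of the repair list was 47.3, 43.6 and 41.1 times that of the inflammatory list in replicates 1, 2 and 3. Apoe, Spp1, C1qb and C1qa gave most of the repair sum, with means of 7020.5, 2506.8, 2054.2 and 1615.2 TPM of 16465.5. The ratio of the lists thus rests on a few genes and is not a ratio of cells. Trem2, a lipid receptor of tissue macrophages, was at 3.25, 2.36 and 1.71 times Ly6c2 in TPM, and Mrc1, the mannose receptor, at 2.35, 1.16 and 1.07 times it. In the other direction, the inflammatory gene Ccr2 was at 1.07, 1.26 and 1.27 times Cx3cr1, the receptor of resident and maturing macrophages.

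Several defining transcripts of neutrophils were close to absent. Of the 14 genes in the neutrophil list, 6 were at 1 CPM or more and 4 at 10 CPM or more, not all of them named here. S100a8, a subunit of the calprotectin that fills neutrophils, was at 1.89, 2.15 and 1.92 CPM and S100a9, its partner, at 0.861, 0.897 and 2.10 CPM. Ly6g, Ngp and Elane, which mark neutrophils and their precursors, had 0 counts in 3 libraries, which for counting error alone allows up to 0.517, 0.538 and 0.525 CPM, the level of 3 counts, in replicates 1, 2 and 3. The neutrophil list still summed to 148, 157 and 164 CPM, and 66.0 ± 3.85 CPM of that came from Csf3r, the receptor for granulocyte colony-stimulating factor, and 42.3 ± 1.15 CPM from Mmp9, a gelatinase; monocytes and macrophages express both. Eosinophil and mast cell genes summed to 24.1, 25.1 and 30.6 CPM, with Kit, the stem cell factor receptor, at 10.4 ± 3.54 CPM.

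Lymphocyte genes were low and antigen presentation genes were not. T and NK cell genes summed to 68.0, 82.7 and 82.9 CPM, with Cd3e, a chain of the T cell receptor complex, at 0.231 ± 0.263 CPM and Foxp3, the factor of regulatory T cells, at 12.7 ± 2.67 CPM. The exons of Foxp3 share 590 bases with Ccdc22 and 853 with Flicr, so its level is uncertain. Only 3 of 13 members were above 10 CPM, namely Il7r, Cd4 and Foxp3. B and plasma cell genes summed to 115, 126 and 111 CPM, most of it Ighm, the heavy chain of immunoglobulin M, at 85.8 ± 6.17 CPM. The dendritic cell list summed to 929, 1314 and 1113 CPM, highest in replicate 2. Its leading members were the class II genes Cd74 at 429, 605 and 532 CPM and H2-Ab1 at 222, 341 and 262 CPM, which macrophages express as well, whereas Flt3, the growth factor receptor of dendritic cells, was at 4.34 ± 0.914 CPM and Xcr1, a receptor of cross-presenting dendritic cells, at 1.88 ± 1.08 CPM.

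The clearance machinery of phagocytes formed the highest group. All 20 lysosome and phagocytosis genes were above 10 CPM and 17 were above 100 CPM, with sums of 33324, 37346 and 35979 CPM. Ctsb, a cysteine protease of lysosomes, was at 6973, 7986 and 7693 CPM, lowest in replicate 1, and Grn (progranulin), a lysosomal growth factor precursor, at 1829, 2092 and 2017 CPM, also lowest in replicate 1. Replicate 2 was the highest library for 13 of the 20. In 31.9% of all genes at 10 CPM or more replicate 2 was the highest. Heme and iron handling genes, which deal with the myoglobin and hemoglobin of dead fibres and trapped blood, summed to 5447, 6035 and 5741 CPM over 12 genes. Hmox1, the enzyme that opens the heme ring, was at 318, 315 and 417 CPM, highest in replicate 3. Fth1, the heavy chain of ferritin, was at 1766, 1904 and 2031 CPM and Slc48a1, the heme transporter of the lysosome, at 144, 141 and 159.8 CPM. Genes of red blood cells themselves summed to 104, 114 and 102 CPM, from the alpha and beta globins, whose paralogs are near-identical and uncertain one by one.

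Of 26 chemokines and cytokines, 24 were above 1 CPM and 17 above 10 CPM, and the sum was 1841, 2006 and 2134 CPM. Cxcl12, a stromal chemokine that holds stem cells and leukocytes in place, was at 372, 419.8 and 443 CPM. Pf4, a chemokine of platelets and macrophages, was at 298, 261 and 293 CPM, Tgfb1, the cytokine that drives matrix production, at 275, 296 and 275 CPM, and Csf1, the ligand of Csf1r, at 198, 219 and 226 CPM. These 4 varied little. Ccl7, a chemoattractant of monocytes, was at 36.2, 53.3 and 76.8 CPM, highest in replicate 3 and lowest in replicate 1. Replicate 3 was the highest library for 12 of the 17 members above 10 CPM, against 36.2% of all genes at that level. Interferon response genes were all above 10 CPM, 14 of 14, and summed to 2256, 2285 and 2441 CPM. Irf7, a transcription factor of that response, was at 356, 408 and 413 CPM and Ifit3, an RNA-binding antiviral protein, at 251, 243 and 235 CPM. Cxcl9, an interferon-induced chemokine for T cells, is not in that list and was at 19.8, 21.7 and 49.7 CPM, with replicate 3 standing alone above the others.

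Matrix genes of the wound had all 24 members above 10 CPM and 21 above 100 CPM. Col1a1 was at 3129, 3111 and 3505 CPM, Col1a2, the second chain of type I collagen, at 2704, 2646 and 2885 CPM and Col3a1, the collagen of early scar, at 3486, 2907 and 3146 CPM. All 3 collagen genes stayed within 1.20-fold between libraries. Col3a1 was 0.745, 0.625 and 0.600 times Col1a1 in TPM, highest in replicate 1. Sparc, a collagen-binding glycoprotein of remodelling tissue, was at 1978, 2079.7 and 2265 CPM and Fn1 (fibronectin), the first scaffold of a wound, at 1362, 1193 and 1387 CPM. Replicate 3 was the highest library for 15 of the 24 matrix genes, against 36.2% of all genes at 10 CPM or more, with small differences, since their median CV was 7.24%. Fibro-adipogenic progenitor genes summed to 3195, 3018 and 3054 CPM over 18 genes. Pdgfra, the receptor that defines these cells, was at 148, 130.1 and 146 CPM, and Ly6a (Sca-1), their second surface marker, at 214, 246 and 292 CPM, highest in replicate 3. Dcn (decorin), a proteoglycan of fibrous tissue, was at 431, 358 and 364 CPM.

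Vessel, nerve, fat and tendon genes were lower. Endothelial genes summed to 599, 626 and 729 CPM over 14 genes, all above 10 CPM, and 9 of them were highest in replicate 3, against 36.2% of all genes. Pecam1 (CD31), the adhesion molecule of endothelium, was at 116, 119.7 and 146 CPM and Cdh5 (VE-cadherin), its junction protein, at 119, 123.25 and 156 CPM, both highest in replicate 3. Sox18, an endothelial transcription factor outside the list, was at 16.5, 26.0 and 33.8 CPM with the same order. Pericyte and smooth muscle genes summed to 634, 611 and 666 CPM, with Pdgfrb, the pericyte receptor, at 132, 137 and 136 CPM and Acta2, smooth muscle actin, at 118, 101 and 114 CPM. Schwann cell genes summed to 198, 193 and 189 CPM, of which Pmp22, a myelin protein that fibroblasts also express, gave 123.37 ± 0.958 CPM. The adipocyte list summed to 666, 828 and 871 CPM, mainly from Lpl, a lipase that macrophages and muscle make too, at 535, 667 and 729.5 CPM. Of its 7 members, 2 were at 100 CPM or more. Per length Lpl ranked 533 with 99.5 TPM, and Fabp4, a further member, ranked 1370 with 49.7 TPM. Adipoq, the hormone that only fat cells make in quantity, was at 2.03 ± 1.38 CPM.

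Tenocyte genes summed to 591, 405 and 323 CPM over 7 genes, and the 5 of them above 10 CPM were all highest in replicate 1 and lowest in replicate 3, the order of the fibre genes, which 17.1% of all genes at 10 CPM or more had. Thbs4, a thrombospondin of tendon and of the muscle-tendon junction that muscle fibres express too, was at 377, 248 and 192 CPM. Comp, a pentameric protein of tendon and cartilage, was at 40.0, 25.5 and 18.7 CPM, and Tnmd, which marks mature tendon cells, at 14.6, 13.1 and 11.0 CPM. Skin keratin and barrier genes summed to 2.41, 1.61 and 2.45 CPM and bone and cartilage genes to 34.4, 32.7 and 38.1 CPM, of which Sox9 gave 28.8 ± 3.87 CPM. Krt14, the main keratin of basal skin cells, had 0 counts in 3 libraries.

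The summed level of muscle stem cell genes was alike in the 3 libraries, but its largest members, Sdc3 and Itga7, went in opposite orders. Myod1, Myog and most fibre genes were highest in replicate 1. Pax7 was at 11.9, 11.8 and 10.7 CPM, and Myf5, the first myogenic factor of activated stem cells, at 10.3, 11.1 and 10.5 CPM. Per length Pax7 ranked 10551 with 3.17 ± 0.174 TPM. The sum of the 18 stem cell genes was 1715, 1709 and 1701 CPM, with 13 above 10 CPM. Of these 13, replicate 1 was highest for 7, replicate 2 for 3 and replicate 3 for 3. Over all genes at that level the shares were 31.8%, 31.9% and 36.2%. The largest member was Sdc3, a heparan sulfate proteoglycan that macrophages also express, with 818, 916 and 967 CPM, lowest in replicate 1. The next, Itga7, the laminin receptor of muscle cells, was at 284, 246 and 187 CPM, highest in replicate 1, and Notch3, a receptor that pericytes carry too, was at 99.7, 88.4 and 98.0 CPM. Calcr, the calcitonin receptor of quiescent stem cells, was at 0.173 ± 0.172 CPM, and Pax3, the close relative of Pax7, was near 0 at 0.410 ± 0.268 CPM.

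Myod1, the factor that commits stem cells to the muscle lineage, was at 263, 200.04 and 199 CPM, highest in replicate 1. Myog, which turns committed cells into differentiating ones, was at 304, 188 and 137 CPM, highest in replicate 1 and lowest in replicate 3. The order of levels of these factors was Myog with 227 ± 93.2 TPM, Myod1 with 192 ± 32.5 TPM, Myf5 with 8.28 ± 0.249 TPM and Pax7 with 3.17 ± 0.174 TPM. Myog and Myod1 did not differ beyond their spread. In TPM, Myog was 1.44, 1.17 and 0.859 times Myod1 in replicates 1, 2 and 3, above it in 2 libraries and below it in replicate 3. Myod1 was 69.6, 53.2 and 58.6 times Pax7 in TPM. Of the 20 commitment and fusion genes, 19 were above 10 CPM and the sum was 2350.3, 1908 and 1688 CPM. Cdkn1a (p21), the inhibitor with which cells leave the cell cycle, was at 372, 346 and 320.2 CPM, and Mef2a, a partner of the myogenic factors, at 242, 231 and 221 CPM, both within a narrow range. Mymk (myomaker) and Mymx (myomixer), the membrane proteins that fuse muscle cells, were at 67.003, 32.5 and 28.5 CPM and 31.9, 16.3 and 11.2 CPM, each highest in replicate 1.

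Genes of young fibres were present in all 3 libraries and differed between them. The 15 regenerating fibre genes summed to 1977, 1428 and 1029 CPM. Of the 14 above 10 CPM, 13 were highest in replicate 1 and lowest in replicate 3, against 17.1% of all genes at that level. Myh3, embryonic myosin heavy chain, was at 208, 122 and 62.6 CPM, 3.32-fold apart between replicates 1 and 3. Myh8, perinatal myosin, was at 44.6, 41.8 and 20.5 CPM, with replicate 3 below the others. H19, an imprinted long noncoding RNA of growing muscle, was at 706, 532 and 409 CPM. Chrna1, the alpha subunit of the acetylcholine receptor, was at 208, 170.1 and 167 CPM and differed less, 1.25-fold. Ankrd1, a stretch-responsive protein of the sarcomere, was at 105, 109.6 and 78.0 CPM, lowest in replicate 3.

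Acetylcholine receptors change a subunit as a fibre matures, from the gamma subunit of embryonic and denervated fibres (Chrng) to the epsilon subunit of innervated ones (Chrne). Chrng was at 61.1, 38.8 and 35.7 CPM and Chrne at 0.861, 1.08 and 1.05 CPM. In TPM, Chrng was 28.8, 14.6 and 13.8 times Chrne, although Chrne rested on 5, 6 and 6 counts. The neuromuscular junction and denervation list of 16 genes summed to 863, 737 and 718 CPM, highest in replicate 1. Its other leading members, Runx1, a factor induced by denervation that leukocytes also express, and Agrn (agrin), the organiser of the synapse, were at 124, 124 and 127 CPM and 60.5, 64.2 and 69.8 CPM.

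Adult fast fibre genes were abundant, with all 27 above 10 CPM and 11 above 100 CPM, and they separated the libraries. Acta1 (ENSMUSG00000031972.4, chr8:123891769-123894751, minus strand) was at 2106, 1265 and 753 CPM, highest in replicate 1 and lowest in replicate 3. Ckm, the creatine kinase of muscle, was at 465, 348 and 185 CPM with the same order. Atp2a1 (SERCA1), the calcium pump of fast fibres, was at 650.4, 458 and 294 CPM, again with that order, but 763 bases of its exons overlap Rabep2. Over the list, 26 of 27 genes were highest in replicate 1 and lowest in replicate 3, against 17.1% of the 11870 genes at 10 CPM or more. The 1 exception was Ampd1, highest in replicate 2. The ratio of the highest to the lowest library ran from 1.38 for Myh4 to 9.18 for Myh2. The sums were 7638, 5105 and 3035 CPM. Leaving out replicate 1, 2 or 3 gave means of 4070, 5336 and 6371 CPM. The list held 0.526 ± 0.233% of all counts. Its summed TPM was 0.405, 0.251 and 0.156 times that of the pan-leukocyte list in replicates 1, 2 and 3. Tenocyte genes had the same order, at 591, 405 and 323 CPM, and the part of tendon in the fibre gene levels was not tested.

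The slow myosin and its light chain were at or near 0. Myh7, the slow myosin, had 5, 2 and 0 counts, and Myl2, the slow regulatory light chain, had 0, 4 and 0 counts. The list summed to 959, 856 and 809.7 CPM, mainly from Tpm3, a tropomyosin with forms in all cells, at 361, 437 and 463 CPM, and Atp2a2 (SERCA2), a calcium pump that most cells use, at 239.8, 230.4 and 256 CPM. Both lacked the order of the fibre genes. Csrp3, a Z-disc protein of slow and injured fibres, was at 97.1, 29.4 and 15.7 CPM, and Mybpc1, a myosin-binding protein, at 143, 77.1 and 34.8 CPM, both with that order. Tnni1, the slow troponin I, and Casq2 had means of 24.2 and 30.7 CPM. They were 3.54-fold and 2.83-fold apart, with replicate 1 highest. Of the 12 members, 6 were at 10 CPM or more.

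Shares of the sarcomeric myosins describe myosin RNA of the whole muscle within each library, and no fibre was typed. The myosins described here, other than Myh7, lie side by side on chromosome 11 of the GRCm38 build, all on the plus strand. In order along the chromosome they are Myh3 at chr11:67078300-67102291, Myh2 at chr11:67171027-67197517, Myh1 at chr11:67200052-67224575, Myh4 at chr11:67238029-67260446 and Myh8 at chr11:67277124-67308634. Myh4, the IIb myosin that the adult TA uses most, held 28.8%, 42.1% and 54.8% of the TPM summed over these genes and Myh7 in replicates 1, 2 and 3. Myh1, the IIx form, held 48.4%, 41.2% and 31.5%. Myh2, the IIa form, held 9.43%, 3.98% and 2.69%. Replicate 1 had the lowest share of the IIb form and the highest shares of the IIx and IIa forms. Embryonic Myh3 held 12.0%, 10.8% and 9.46% and perinatal Myh8 1.32%, 1.91% and 1.59%. Myh13, a further myosin gene that had a mean of 13.6 CPM, was in no list and is left out of these shares. Together the developmental forms held 13.3%, 12.7% and 11.0%, and the adult forms, Myh7 included, held the rest.

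As levels, Myh4 was at 497, 472 and 360.3 CPM, 1.38-fold apart, Myh1 at 880.3, 488 and 219 CPM, 4.02-fold apart, and Myh2 at 193, 52.9 and 21.0 CPM, 9.18-fold apart. Myh2 had the largest ratio of the highest to the lowest library among protein-coding genes at 10 CPM or more. The coding sequences of these paralogs are alike, so the split of reads between them is uncertain. Without strand, 515 bases of Myh1 exon also cannot be told apart from Myhas, the antisense gene of the cluster. Myh8 was given an exon length of 11772 bases, the union of all its annotated exons, against 6016 for Myh4, which lowers its share.

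**Figure D3:**
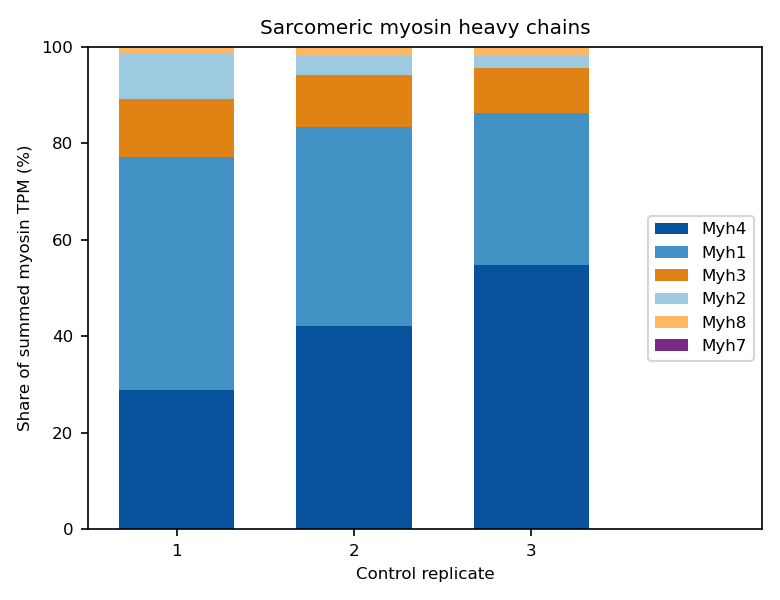
Share of the summed TPM of 6 sarcomeric myosin heavy chain genes (%, linear axis from 0) in each control replicate. Myh4 took 28.8% in replicate 1 and 54.8% in replicate 3, while Myh2 took 9.43% and 2.69%.

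Transcripts of dividing cells were present at similar levels in the 3 libraries. The 18 S phase genes summed to 1005, 934 and 1058 CPM and the 19 mitosis genes to 1383, 1151 and 1266 CPM. Mki67, the proliferation antigen Ki-67, was at 228, 178 and 215 CPM, lowest in replicate 2, and ranked 2192 per length. Top2a, the topoisomerase that untangles chromosomes, was at 176, 134 and 169 CPM, also lowest in replicate 2. Mcm3, a subunit of the replicative helicase, was at 95.3, 94.9 and 96.8 CPM, with hardly any spread. Ube2c, a ubiquitin conjugase of mitosis, was at 233, 168 and 97.8 CPM, with the order of the fibre genes, and 592 bases of its exons overlap Tnnc2, the fast troponin C, which was at 204, 142 and 70.9 CPM. It was the 1 mitosis gene of 19 whose libraries differed by 2-fold or more, as did 1.47% of all genes at 10 CPM or more. The part of Tnnc2 reads in its level was not tested.

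Promoter windows of 3 fibre, 2 mitosis and 1 leukocyte gene are shown because they hold the motif of the factors known for each group. They were picked by level among list members with a single window and few exon bases shared with another gene. The windows are RefSeq's, 300 bases from 250 before to 50 after the transcription start on GRCm38.p6, printed 5′ to 3′ along the gene. They were searched on both strands for CAGCTG, an E-box that Myod1 and Myog bind and that reads the same on both strands, for GAGGAA, the core of a PU.1 site, and for TTTGAA, the cell cycle homology region of genes of late cell cycle. Matches of different motifs can share at most 1 base. The windows of Myh4 and Cdk1 also hold GAGGAA on the other strand, and that of Laptm5 also holds CAGCTG, each left in lower case. In each window, capitals mark only the motif named. It is CAGCTG in Acta1 at chr8:123894726-123895025 on the minus strand, Myh4 at chr11:67237562-67237861 on the plus strand and Chrna1 at chr2:73580289-73580588 on the minus strand.
Acta1 promoter: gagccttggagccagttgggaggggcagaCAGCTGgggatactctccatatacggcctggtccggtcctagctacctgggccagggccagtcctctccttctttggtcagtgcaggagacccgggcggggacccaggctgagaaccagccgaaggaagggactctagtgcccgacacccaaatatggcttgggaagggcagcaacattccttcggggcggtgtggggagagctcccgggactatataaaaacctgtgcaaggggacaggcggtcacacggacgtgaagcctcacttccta
Myh4 promoter: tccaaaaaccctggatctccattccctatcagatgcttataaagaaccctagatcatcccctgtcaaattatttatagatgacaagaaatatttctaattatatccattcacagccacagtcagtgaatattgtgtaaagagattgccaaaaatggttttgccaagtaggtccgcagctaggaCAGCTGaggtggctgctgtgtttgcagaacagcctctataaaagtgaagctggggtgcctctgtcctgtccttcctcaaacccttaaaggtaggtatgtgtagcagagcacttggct
Chrna1 promoter: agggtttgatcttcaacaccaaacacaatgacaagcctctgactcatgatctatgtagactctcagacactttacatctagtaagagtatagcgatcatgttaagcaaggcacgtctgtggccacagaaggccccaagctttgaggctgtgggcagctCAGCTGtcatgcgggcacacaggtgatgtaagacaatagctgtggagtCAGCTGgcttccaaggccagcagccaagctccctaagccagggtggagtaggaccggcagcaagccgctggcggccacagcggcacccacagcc

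The match began 221 bases before the start in Acta1 and 67 before it in Myh4, while Chrna1 held matches at 92 and 44 bases before its start. The capitals mark TTTGAA in Mki67 at chr7:135716330-135716629 on the minus strand and in Cdk1, the kinase that starts mitosis, at chr10:69352863-69353162 on the minus strand. In Laptm5 at chr4:130913066-130913365 on the plus strand they mark TTCCTC, which is GAGGAA on the other strand.
Mki67 promoter: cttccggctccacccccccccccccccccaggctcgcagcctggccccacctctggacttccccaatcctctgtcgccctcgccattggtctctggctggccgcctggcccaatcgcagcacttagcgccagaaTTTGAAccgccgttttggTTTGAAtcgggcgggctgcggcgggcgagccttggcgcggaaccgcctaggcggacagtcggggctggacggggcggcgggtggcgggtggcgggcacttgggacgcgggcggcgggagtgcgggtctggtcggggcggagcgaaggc
Cdk1 promoter: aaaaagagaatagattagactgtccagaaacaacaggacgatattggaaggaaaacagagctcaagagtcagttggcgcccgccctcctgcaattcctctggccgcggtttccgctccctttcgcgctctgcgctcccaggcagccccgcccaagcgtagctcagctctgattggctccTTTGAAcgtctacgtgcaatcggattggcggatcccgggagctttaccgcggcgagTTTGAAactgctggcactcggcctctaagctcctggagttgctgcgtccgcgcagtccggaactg
Laptm5 promoter: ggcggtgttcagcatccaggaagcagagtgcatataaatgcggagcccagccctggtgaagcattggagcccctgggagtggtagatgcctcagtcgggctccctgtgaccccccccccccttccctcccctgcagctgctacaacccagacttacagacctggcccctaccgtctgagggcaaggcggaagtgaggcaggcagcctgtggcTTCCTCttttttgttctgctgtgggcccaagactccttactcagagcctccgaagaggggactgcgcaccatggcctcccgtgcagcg

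Mki67 held matches 116 and 98 bases before its start, and Cdk1 at 71 and 15 bases. The match in Laptm5 began 38 bases before the start. CAGCTG was in the window of 11 of 19 adult fast fibre genes that had one, or 57.9%, of 4 of 11 regenerating fibre genes, or 36.4% and of 6 of 12 pan-leukocyte genes. It was in 18.3% of the 27025 genes of the table. In the mitosis list 1 of 15 genes held it and in the S phase list 2 of 15. TTTGAA was in 11 of 15 mitosis genes, or 73.3%, against 20.2% of all genes, in 4 of 12 pan-leukocyte genes, or 33.3%, and in 1 of 15 S phase genes. GAGGAA was in 7 of 12 pan-leukocyte genes, or 58.3%, against 31.3% of all genes, in 57.9% of adult fast fibre genes, in 45.5% of regenerating fibre genes, in 46.7% of mitosis genes and in 33.3% of S phase genes. A gene with several windows counts once if any window matches. These are letters in a window, not measured binding sites.

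The spread among the 3 libraries was small for most genes. At a mean of 10 CPM or more, the median CV was 8.42% beside a median of 6.74% that counting alone would give, and the median gene had its highest library 1.17 times its lowest. The common dispersion estimated by edgeR gave a biological coefficient of variation of 10.02%. In the 80 genes with the highest means, where counting error is small, the median CV was 7.11% against 1.06% from counting. The steadiest protein-coding genes above 50 CPM included Sgsh, a lysosomal sulfatase, at 64.8, 64.8 and 64.9 CPM, and Rhog, a small GTPase, at 224, 224 and 224 CPM, whose spread was below what counting alone gives.

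**Figure D4:**
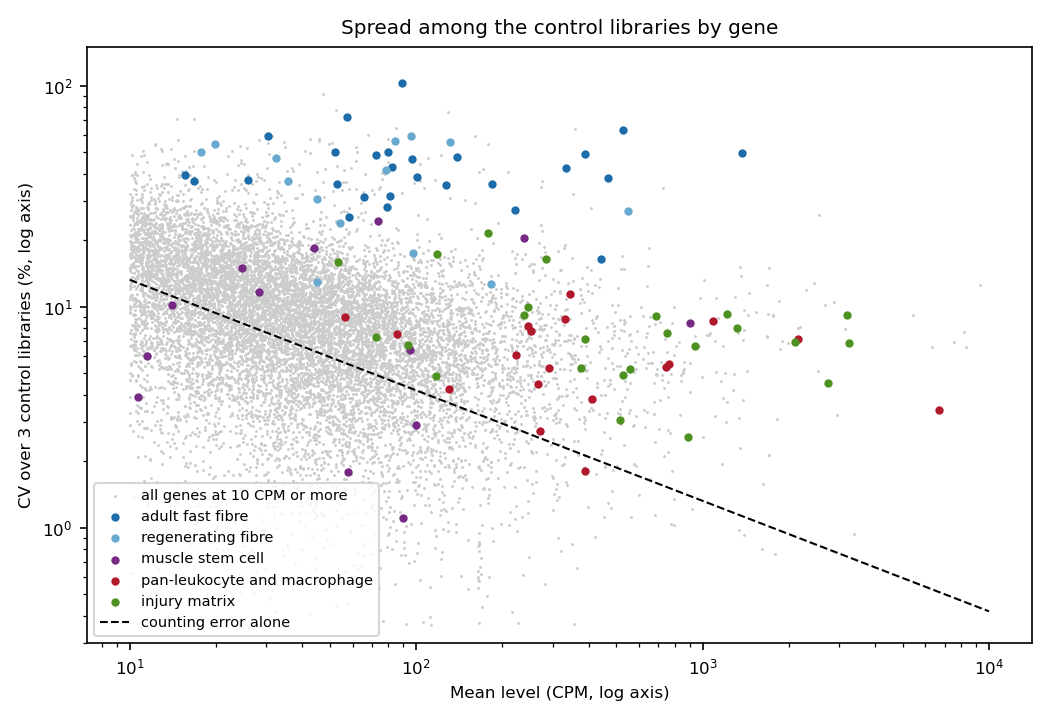
CV over the 3 control libraries (%, log axis) against mean level (CPM, log axis) for the 11870 genes at 10 CPM or more, with members of 5 lists coloured and the CV of counting error alone as a dashed line. Adult fast fibre genes lay mostly above the cloud, with a median CV of 39.5%, and pan-leukocyte genes within it, with 5.78%.

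Genes whose highest library was at least 2 times the lowest numbered 175, which is 1.47% of the 11870 at 10 CPM or more. Replicate 1 was the highest library in 148 of them (1.25% of all), replicate 2 in 13 (0.11%) and replicate 3 in 14 (0.118%). In 145 of the 175, or 82.9%, replicate 1 was highest and replicate 3 lowest, which is 1.22% of all genes. Without a threshold on the fold, the highest library was replicate 1 in 31.8% of genes, replicate 2 in 31.9% and replicate 3 in 36.2%. The adult fast fibre list held 21 such genes of 27, the regenerating fibre list 8 of 14 above 10 CPM, the slow fibre list 4 of 6 and the commitment list 6 of 19. The stem cell, pan-leukocyte, repair macrophage, lysosome, injury matrix, fibro-adipogenic and endothelial lists held 0. They had 13, 18, 19, 20, 24, 17 and 14 members above 10 CPM. Beside the 1.47% of all genes, a count of 0 in lists of this size does not set them apart. Without replicate 1 the count over all genes was 37, without replicate 2 it was 161 and without replicate 3 it was 24, and in the adult fast fibre list it was 6, 20 and 1. Of the 175, 130 were in none of the lists.

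The 10 protein-coding genes furthest apart with replicate 1 highest were all of muscle: Myh2, Csrp3, Actn2, Mb, Xirp2, Ckmt2, Mybpc1, Myh1, Fhl1 and Hspb7. Actn2 (alpha-actinin 2), which anchors actin at the Z-disc, was at 97.7, 41.8 and 18.024 CPM. Xirp2, an actin-binding protein of the muscle-tendon junction, was at 239, 98.1 and 49.3 CPM, and Fhl1, a LIM protein of muscle, at 613, 294 and 168 CPM. Mb (myoglobin), the oxygen store of oxidative fibres, was at 101, 51.8 and 18.9 CPM. In each of these, replicate 2 lay between the others. Over all 27 adult fast fibre genes the mean of centred log2 (CPM + 0.5) was 0.61, 0.11 and -0.72 in replicates 1, 2 and 3, a difference of 1.33 between replicates 1 and 3. For the regenerating fibre list it was 0.55, 0.02 and -0.57, for the commitment list 0.34, -0.05 and -0.29, and for the stem cell list 0.15, -0.05 and -0.10.

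**Figure D5:**
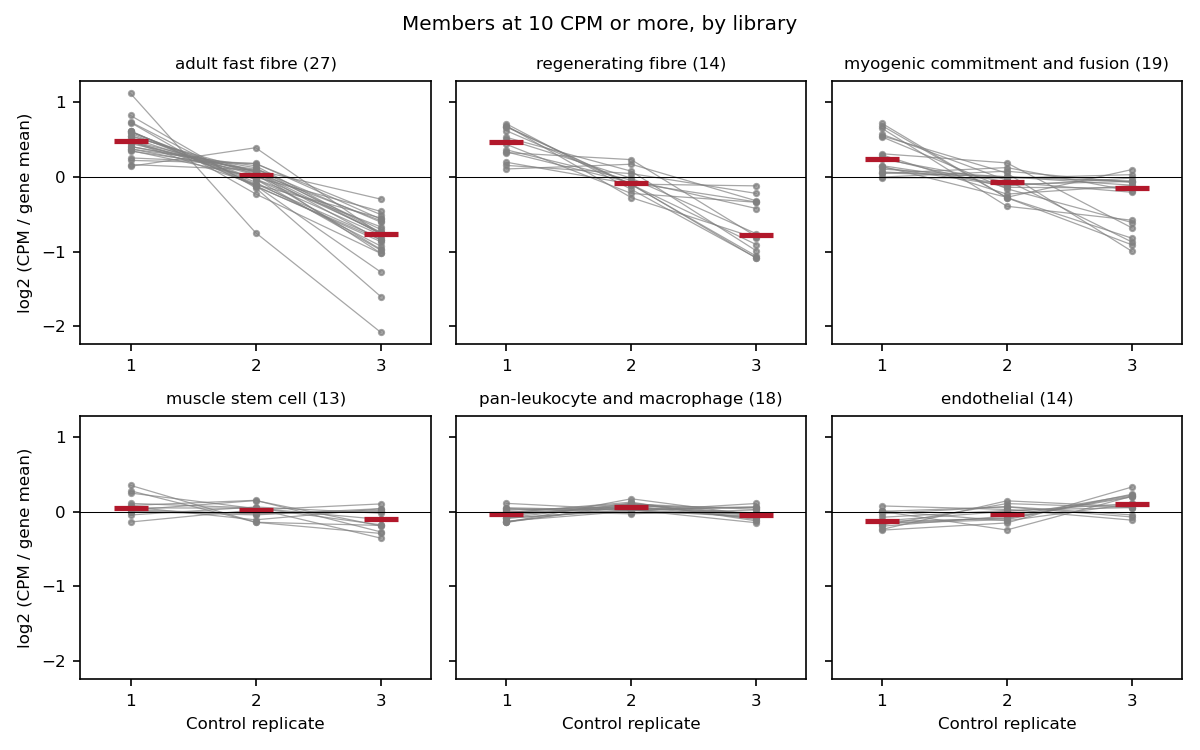
Level of each gene at 10 CPM or more in 6 lists, as log2 of CPM over the gene's mean, in control replicates 1, 2 and 3; grey lines join the values of a gene and red bars mark the median over genes. The fibre lists lie above 0 in replicate 1 and below it in replicate 3, whereas stem cell, pan-leukocyte and endothelial genes stay near 0.

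Genes with another library highest were few and mixed, and the 10 protein-coding genes named for each include some just under 2-fold. Among the 10 furthest apart with replicate 2 highest, Chil3 (Ym1), a secreted protein of alternatively activated macrophages and monocytes, was at 43.8, 60.5 and 18.9 CPM, lowest in replicate 3. Trim63 (MuRF1) and Trim54 (MuRF3), ubiquitin ligases of the sarcomere, were at 35.5, 37.5 and 18.5 CPM and 21.0, 22.4 and 7.00 CPM, and Ampd1, the AMP deaminase of muscle, at 18.4, 21.9 and 9.80 CPM. Replicate 3 was lowest in all 4 of these, and replicates 1 and 2 were closer to each other. Rps4x and Rpl19, ribosomal proteins with many processed copies, were at 18.4, 23.3 and 11.0 CPM and 12.2, 15.4 and 7.70 CPM. With replicate 3 highest, the 10 included Ly6c2, Ccl7 and Cxcl9 given above, Mmp12, the elastase of macrophages, at 29.1, 23.7 and 46.9 CPM, 1.98-fold apart, and Cdca2, a mitotic phosphatase regulator, at 23.8, 15.8 and 31.8 CPM.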

How the data were processed

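RNA was extracted with an RNeasy Mini kit, made into libraries with a NEBNext Ultra RNA kit and sequenced on an Illumina NovaSeq instrument, per the labels' protocols. The values used are raw counts per Ensembl gene as the authors deposited them, not normalized. The tools fastp, Bowtie2 and featureCounts and the builds GRCm38 and mm10 are listed in the submitters' processing notes. Strand settings, the treatment of multi-mapping reads and the annotation release were not given in the sources used here. Of 48820 identifiers, 48144 matched the GENCODE M21 annotation of GRCm38, and the other 676 held 0.220% of counts.

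CPM used library totals with TMM factors from edgeR 4.0.16 (limma 3.58.1, R 4.3.3), computed among the 3 control libraries. TPM used the union of annotated exons. Tables and plots were made with Python 3.11.15, pandas 2.3.3, numpy 2.4.6 and matplotlib 3.10.9. There was 1 group, so no test was run. A gene counted as varying where its mean was at least 10 CPM and its highest library at least 2 times its lowest. The scripts were tested on simulated counts. Depths of 5601699 to 5777563 counts put the level of 3 counts near 0.5 CPM. Alternatives changed the scaling, total, filter, fold, gene length and replicates used.

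The 32 gene lists, which hold 453 genes, and the libraries to describe were chosen with earlier results of these data known. Genes were named as a fixed set of 15, the 20 highest by CPM and by TPM, the 4 highest of each list with the first 2 of cell type lists, the 10 that varied most with each library highest, and the 5 steadiest above 50 CPM. Calcr, Cd63, Cd68, Cdk1, Chrne, Chrng, Cx3cr1, Elane, Fn1, Hspb1, Ly6g, Mrc1, Mymk, Mymx, Ngp, Pax3, Sirt7, Tnnc2, Tpt1, Tpt1-ps3 and Trem2, and Myh13, were chosen after their values were seen. Some genes that this rule names are not reported here.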

Additional observations from a re-analysis of the deposited data

How the results depend on the processing

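Summed list levels moved by less than 1 SD in all 32 lists with no scaling factor, with RLE factors and with upper-quartile factors. The factors of every method lay between 0.995 and 1.005, so these settings could move the sums only slightly. Leaving out 1 replicate moved the adult fast fibre mean between 4070 and 6371 CPM. With the total taken over protein-coding genes outside the mitochondrial genome, each sum is larger because the total is smaller. The stem cell sum became 2141 CPM, the pan-leukocyte sum 18461 CPM and the injury matrix sum 26121 CPM. The count of genes with a 2-fold or larger range, 175 with the filter of 10 CPM, was 1823 of 17729 at a mean of 1 CPM, 3629 of 20344 with no filter and 60 of 4679 at 50 CPM. A fold of 1.5 gave 818. Leaving out a replicate gave 24 to 161, lowest without replicate 3. Leaving out genes that share exon bases with another gene, an alternative added after seeing the data, gave 116 of 7709, and 10 of 14 adult fast fibre genes. Restricting the motif background to genes at 10 CPM or more, also added later, gave 18.1% for CAGCTG and 14.0% for TTTGAA. With the longest transcript as gene length, the median rank was 299 for pan-leukocyte, 465 for injury matrix and 5800 for stem cell genes. Genes at a few counts are limited by depth. No paired analysis was possible because 1 group was described and no groups were compared.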

Other observations

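Growth factors and the early stress response were also measured. The 19 growth factors and modulators summed to 849, 866 and 834 CPM. Igf1, a growth factor that macrophages and muscle cells release during repair, was at 142, 146 and 145 CPM and varied 1.03-fold. Igf2, its relative of growing muscle, was at 111, 77.3 and 46.2 CPM, with the order of the fibre genes, and 3596 bases of its exons overlap a predicted gene. Bmp1, a protease that matures collagen, was at 182, 175 and 188 CPM, and Metrnl, a secreted factor of muscle and macrophages, at 85.8, 105 and 112 CPM. Immediate early and heat shock genes summed to 1082, 1249 and 1126 CPM over 16 genes. Jun, a subunit of the AP-1 factor, was at 231, 287 and 267 CPM and Zfp36, which destabilises cytokine mRNAs, at 71.8, 109 and 123.02 CPM, both lowest in replicate 1. Hspb1, a small heat shock protein that muscle fibres contain in quantity, was at 81.8, 43.4 and 27.3 CPM, with the order of the fibre genes.

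Among genes with a mean of at least 100 counts, 41 of 9706 had exactly the same 3 counts as another gene, in 28 pairs, 16 of which overlap in the genome. Pcdhga5 and Pcdhgb7, protocadherins of the gamma cluster that share their last exons, were among the steadiest genes, at 166, 165 and 166 CPM and 167, 167 and 167 CPM. Cd63, a tetraspanin of lysosomes, was at 12.9 ± 2.92 CPM and ranked 8706 per length, the lowest rank of its list.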
